A study of Homo sapiens with 9 samples.

Results

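The PARP family is the set of ADP-ribosyltransferases built around the catalytic domain of PARP1. The 10 family genes described here, PARP1, PARP2, PARP3, PARP4, PARP6, PARP8, PARP9, PARP10, PARP14 and TNKS, were taken by name. The rule uses no measured value, although the genes were proposed with earlier results of these data known. They are 10 of 60675 genes in the count tables, and all 10 were among the 19278 genes that passed the filter on low counts.

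RNA-seq was performed in LNCaP:C4-2, an established castrate-resistant prostate cancer line derived from LNCaP, in 3 groups of 3 libraries. Cells carried an inducible hairpin against METTL3, the catalytic subunit of the RNA m6A methyltransferase, or a scrambled hairpin (shScramble), which has no gene target. The METTL3 hairpins are named shMETTL3 guide 1 and shMETTL3 guide 2. All groups, shScramble included, had an inducible lentiviral pLKO vector, puromycin selection, medium with charcoal-stripped serum (as the labels give it) and doxycycline at 1 μg/ml for 6 days, although the sample titles read vehicle. Each group is a separately transduced and selected population, described as stable clones in the methods, so an effect of the hairpin and a difference between selected populations cannot be told apart. The labels do not say that the libraries of a group came from separate cultures, and p-values therefore measure only the spread between these libraries.

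METTL3 RNA was 31.5 ± 1.59 CPM (read counts scaled to a common library size with the TMM factors of edgeR; SD, n = 3) in shScramble, 16.3 ± 0.423 with guide 2 and 29.7 ± 0.378 in the libraries labelled guide 1. Its log2 fold change was -0.95 against shScramble with guide 2 (edgeR adjusted p = 2.97e-12) and -0.08 in the libraries labelled guide 1 (edgeR adjusted p = 0.251). METTL3 RNA was thus not lowered in the latter, which are referred to by their label throughout. Library totals ran from 21899501 to 30897639 counts. Fewer genes had a count with guide 2 (24884 to 26505) than in the other groups (28459 to 29628). The prostate luminal markers KLK3, FOLH1, HOXB13, TMPRSS2, KRT8 and KRT18 were detected in every group, and the basal markers KRT5, KRT14 and TP63 lay below the floor of 3 counts. The summed level of these luminal markers was 2062 to 2088 CPM in shScramble, 2218 to 2359 CPM with guide 2 and 1032 to 1062 CPM in the libraries labelled guide 1. In RNA from whole cultures, fewer cells that express a gene and less of its RNA per cell cannot be told apart.

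ADP-ribosyltransferases move ADP-ribose from NAD to proteins and nucleic acids. PARP1 and PARP2 build chains at DNA breaks and are the targets of the PARP inhibitors used in prostate cancer, and the tankyrases build chains on proteins that they mark for degradation. Most other members add only a single ADP-ribose. Several genes of the family, including PARP9, PARP10, PARP12 and PARP14, belong to the interferon response. Macrodomain proteins and hydrolases read and remove the mark, and the cell replaces the NAD that is spent.

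The hairpins differ in the site they target in METTL3 mRNA, and both sites are shown because the members were searched for them. Capitals mark the bases that would pair with the seed of the hairpin's guide strand.
guide 1: cgtcagtatcttgGGCAAGTt
guide 2: gctgcacttcagaCGAATTAt
Neither site had a full match in the 144 annotated transcripts of the 10 members. The longest run of bases shared with a member was 9 for guide 1 and 10 for guide 2. Letters matching the seed of guide 1 were found in 3 members, PARP3, PARP6 and PARP10, and in 18.6% of 14336 tested protein-coding genes. The seed of guide 2 had a match in 0 members and in 3.67% of those genes. These searches were chosen after the expression values were known.

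The first question was which family members changed with shMETTL3. Calls required an adjusted p under 0.05 together with a change of 1.5-fold or more in either direction. With guide 2, 3 of 10 members were called against shScramble (30%), beside 29.3% of all tested genes. PARP1 rose, where 8.85% of tested genes did, and PARP4 and PARP6 fell, where 20.4% did. In the libraries labelled guide 1, 7 of 10 were called (70%), beside 37.7% of tested genes. PARP1, PARP2 and PARP6 rose there, where 21.2% of genes did, and PARP4, PARP9, PARP10 and PARP14 fell, where 16.5% did. Between the shMETTL3 groups, compared directly, 4 of 10 members were called (40%), beside 47.3% of tested genes. PARP9, PARP10 and PARP14 were higher with guide 2, where 19.1% of genes were, and PARP6 was lower, where 28.2% were. These comparisons share libraries, since each group enters 2 of the 3.

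**Figure D1:**
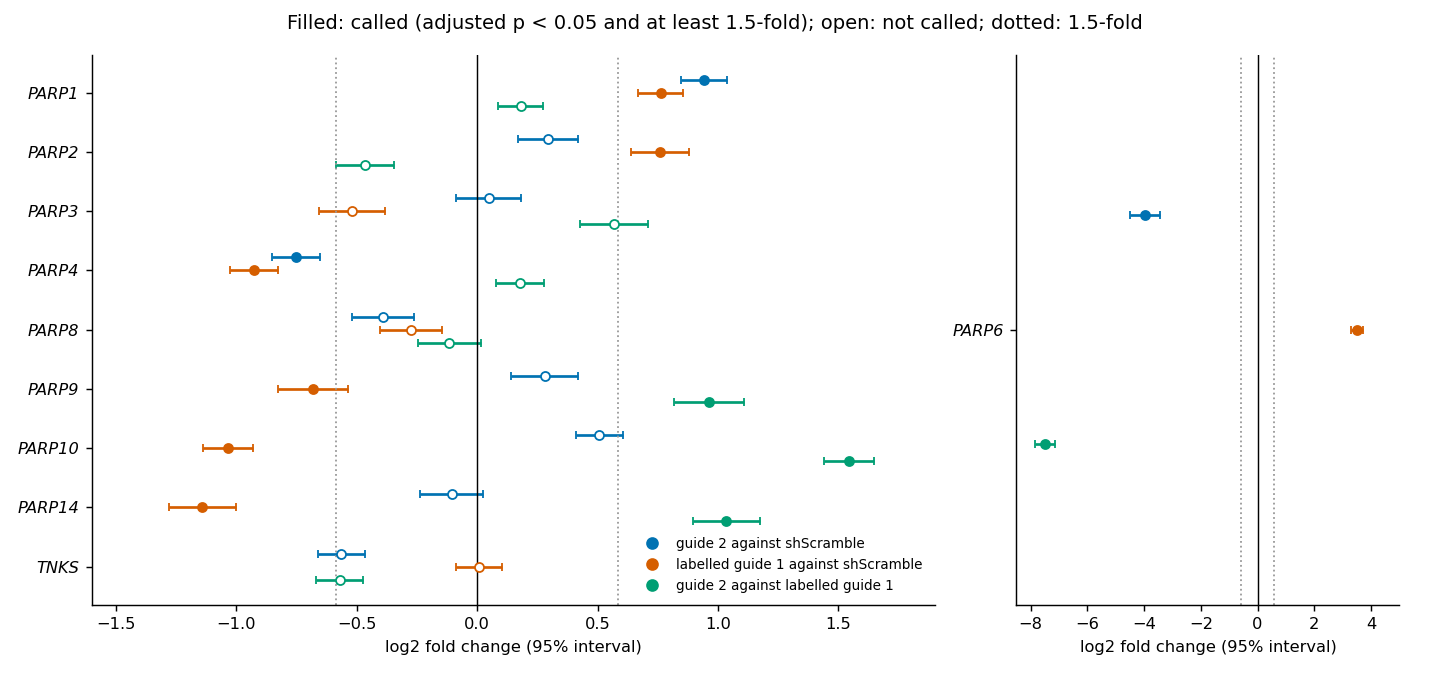
The horizontal axes give the log2 fold change of each PARP family gene (rows) with its 95% interval in the 3 comparisons (colours), with PARP6 on its own wider axis. Filled points were called and open points were not, and the dotted lines stand at 1.5-fold. PARP1 and PARP4 lie on the same side of 0 against shScramble in both comparisons, while PARP6 lies at -3.97 with guide 2 and 3.51 in the libraries labelled guide 1.

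At the adjusted p alone, 8 members differed from shScramble with guide 2 (61.8% of tested genes), 9 in the libraries labelled guide 1 (68.4%) and 9 between the shMETTL3 groups (74.6%). The libraries of the groups did not overlap in CPM for 8, 9 and 10 members in these comparisons, beside 66.5%, 71% and 75.8% of tested genes. The median log2 fold change of the 10 members was -0.03, -0.40 and 0.18 in the same order, and that of all tested genes was -0.04, -0.02 and -0.06. The members' shares of calls with guide 2 and between the shMETTL3 groups lay near or below those of all genes.

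PARP1 is the major sensor of DNA strand breaks and makes most of the poly(ADP-ribose) in a damaged cell. The gene lies on chromosome 1, 226360691 to 226408079, minus strand, and its 24 merged exons share 0 bases with another gene. PARP1 was counted at 298, 297 and 284 CPM in the shScramble libraries 1, 2 and 3. It reached 554, 549 and 586 CPM with guide 2. It was 481, 505 and 503 CPM in the libraries labelled guide 1. The guide 2 libraries and those labelled guide 1 all lay above the 3 shScramble libraries, with the guide 2 libraries highest. METTL3 RNA was lowered only with guide 2. PARP1 rose with a log2 fold change of 0.94 (SE 0.0462, edgeR adjusted p = 9.70e-16) with guide 2. It was 0.76 (SE 0.0460, edgeR adjusted p = 2.12e-14) in the libraries labelled guide 1. The difference between the shMETTL3 groups was 0.18 (95% interval 0.09 to 0.27, edgeR adjusted p = 0.000831), which is below the 1.5-fold limit.

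PARP2, the partner of PARP1 in the repair of single-strand breaks, lies on chromosome 14, 20343582 to 20357905, plus strand, and shares 3.17% of its exon bases with antisense genes. It was 30.4, 31.1 and 30.4 CPM in shScramble, 37.7, 37.4 and 37.6 CPM with guide 2, and 54.98, 47.9 and 52.6 CPM in the libraries labelled guide 1. The 3 groups were separate, with shScramble lowest and the libraries labelled guide 1 highest, whereas for PARP1 guide 2 was highest. PARP2 was called only in the libraries labelled guide 1 (log2 fold change 0.76, SE 0.0587, edgeR adjusted p = 4.45e-12). With guide 2 the value was 0.29 (SE 0.0608, edgeR adjusted p = 0.000155), under the fold limit, and the direct difference between the shMETTL3 groups was -0.46 (SE 0.0586, edgeR adjusted p = 4.99e-08). On the scale of CPM per kilobase of exon, which allows genes to be compared, PARP1 exceeded PARP2 by a ratio of 5.46 ± 0.140 in shScramble, 8.56 ± 0.294 with guide 2 and 5.50 ± 0.514 in the libraries labelled guide 1 (SD, n = 3).

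PARP3, a mono-ADP-ribosyltransferase of double-strand break repair, lies on chromosome 3, 51942345 to 51948867, plus strand. Its level was 38.1, 38.0 and 36.8 CPM in shScramble and 37.7, 37.2 and 41.97 CPM with guide 2, and these groups overlapped. The libraries labelled guide 1 were lower, at 24.3, 28.9 and 25.7 CPM. With guide 2 the log2 fold change was 0.05 (95% interval -0.09 to 0.18, edgeR adjusted p = 0.553). In the libraries labelled guide 1 it was -0.52 (SE 0.0673, edgeR adjusted p = 1.02e-07), which did not reach the fold limit. The 3 damage-responsive members therefore had 3 different patterns, since PARP1 was higher in both shMETTL3 groups, PARP2 mainly in the libraries labelled guide 1, and PARP3 in neither.

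The promoter of PARP1, which rose in both comparisons, is shown from RefSeq at chr1:226408044-226408343 (GRCh38.p14, minus strand, from 250 bases before the start to 50 after). Capitals mark GGGCGG, the letters of the GC box bound by Sp1, found here on the opposite strand.
PARP1: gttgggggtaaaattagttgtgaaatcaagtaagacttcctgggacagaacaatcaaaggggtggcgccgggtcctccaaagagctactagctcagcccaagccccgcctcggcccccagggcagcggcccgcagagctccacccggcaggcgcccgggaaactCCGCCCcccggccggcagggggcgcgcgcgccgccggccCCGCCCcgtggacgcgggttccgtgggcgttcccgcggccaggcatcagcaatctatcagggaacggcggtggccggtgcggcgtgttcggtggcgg
These letters were searched on both strands and occurred 2 times here, and 45% of 35116 promoters of the same length held them at least once. Of the other members with a promoter in the reference, PARP2, PARP6, PARP8, PARP9 and PARP14 also held them in an entry, and PARP3 did not. The window holds 33 CpG dinucleotides, against a median of 14 over all promoters.

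**Figure D2:**
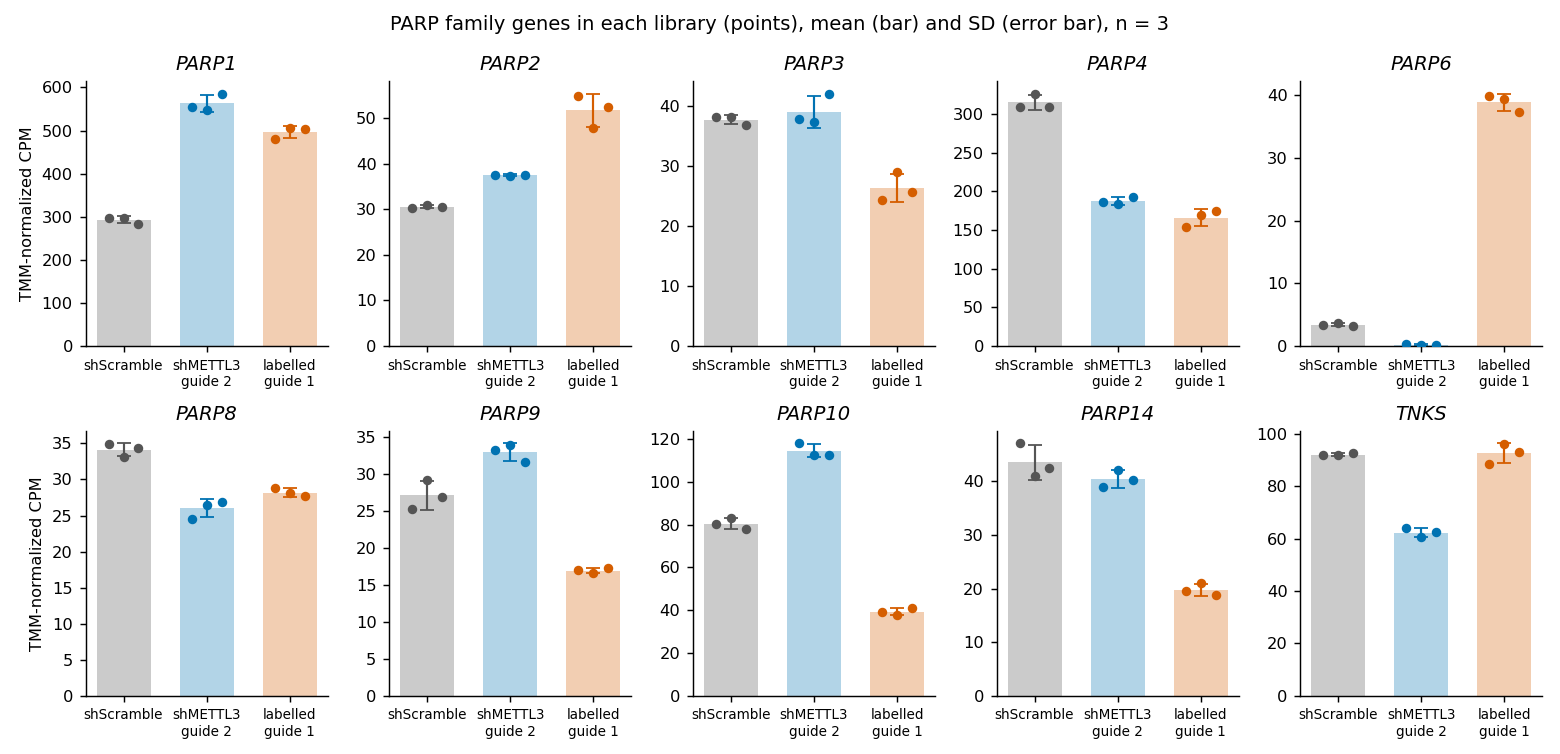
Each panel shows a PARP family gene, with TMM-normalized CPM on the vertical axis (linear, from 0) in the 3 groups. Points are libraries, bars are means and error bars are the SD (n = 3). PARP1 is higher and PARP4 lower in both shMETTL3 groups than in shScramble, whereas PARP9, PARP10 and PARP14 are lowest in the libraries labelled guide 1 and PARP6 is near 0 with guide 2.

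The proteins that work with PARP1 and PARP2 differed among themselves. Of 10 cofactors and single-strand break repair genes, 1 rose and 1 fell with guide 2, and 5 rose and 0 fell in the libraries labelled guide 1. Of all tested genes, 8.85% rose and 20.4% fell with guide 2, and 21.2% rose and 16.5% fell in the libraries labelled guide 1. The list's median log2 fold change was 0.24 and 0.55, against -0.04 and -0.02 for all tested genes. FEN1, the flap endonuclease, rose in both comparisons (1.27 and 0.78). XRCC1, the scaffold that binds poly(ADP-ribose) at breaks, was at 0.39 with guide 2, not called, and rose by 1.15 on the log2 scale in the libraries labelled guide 1. CHD1L, a chromatin remodeller switched on by poly(ADP-ribose), was at 0.16, not called, and 1.05, called. APLF, which binds poly(ADP-ribose) in end joining, fell with guide 2 (-0.97) and rose in the libraries labelled guide 1 (0.90). HPF1, which directs PARP1 and PARP2 to serine, was called in neither (0.32 and 0.48), and neither was LIG3, the DNA ligase of this pathway (0.02 and -0.11).

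PARP4 is a component of the vault, a ribonucleoprotein particle of the cytoplasm. The gene lies on chromosome 13, 24420926 to 24512810, minus strand, and its 34 merged exons share 0 bases with another gene. It was 310, 327 and 310 CPM in shScramble. With guide 2 it was 186, 183 and 193 CPM, and in the libraries labelled guide 1 it was 153, 169 and 174 CPM. The guide 2 libraries and those labelled guide 1 all lay below the 3 shScramble libraries, although METTL3 RNA was lowered only with guide 2. PARP4 fell with a log2 fold change of -0.75 (SE 0.0484, edgeR adjusted p = 2.74e-13) with guide 2 and -0.93 (SE 0.0485, edgeR adjusted p = 8.08e-16) in the libraries labelled guide 1. The study's discussion lists PARP4, with PARP1, among genes raised by METTL3 knockdown. For PARP4 the direction in the counts was the opposite. The shMETTL3 groups differed from each other by 0.18 (95% interval 0.08 to 0.28, edgeR adjusted p = 0.00196), under the fold limit. At the 1.5-fold limit, PARP4 was the only member called lower in both comparisons, and PARP1 the only one called higher in both. Both comparisons use the same shScramble libraries, and the share of all tested genes called alike in both is not given here. At the adjusted p alone, PARP8 was also lower and PARP2 also higher in both, with values given under those genes.

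Neither of the other vault proteins was called lower. MVP, which forms the vault shell, was at a log2 fold change of 0.26 with guide 2, not called, and rose by 1.02 in the libraries labelled guide 1. TEP1, the telomerase-associated vault protein, was called in neither (-0.36 and 0.06).

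TNKS encodes tankyrase 1, which modifies AXIN and the telomere protein TERF1. It lies on chromosome 8, 9555914 to 9782346, plus strand, and shares 4.28% of its exon bases with an antisense gene. It was 91.9, 92.0 and 92.7 CPM in shScramble, 64.0, 60.6 and 62.5 CPM with guide 2, and 88.6, 96.1 and 93.3 CPM in the libraries labelled guide 1. The guide 2 libraries were the lowest, and the other groups overlapped. With guide 2 the log2 fold change was -0.56 (SE 0.0481, edgeR adjusted p = 7.78e-11), a 1.48-fold difference that lay just inside the 1.5-fold limit and was not called. Scaled by library size alone the value was -0.71 and was called. It was 0.01 in the libraries labelled guide 1 (95% interval -0.09 to 0.10, edgeR adjusted p = 0.898). TNKS2, the second tankyrase, was called in neither comparison (0.17 and 0.05).

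Of 9 tankyrase partners and substrates, 0 rose and 1 fell with guide 2, and 2 rose and 1 fell in the libraries labelled guide 1. All tested genes had 8.85% higher and 20.4% lower with guide 2, and 21.2% higher and 16.5% lower in the libraries labelled guide 1, so these counts lay near the background. The median log2 fold change of the list was 0.08 and -0.27, against -0.04 and -0.02 for all tested genes. With guide 2 the gene that fell was USP25 (-0.73), a deubiquitinase that binds tankyrase. RNF146, the ubiquitin ligase that recognises the chains made by tankyrase, was at -0.58 with guide 2 and 0.31 in the libraries labelled guide 1, neither called. AXIN1 and AXIN2, scaffolds of the beta-catenin destruction complex, were at 0.44 and 0.31 with guide 2, not called, and rose in the libraries labelled guide 1 (0.61 and 0.76). TNKS1BP1, a tankyrase-binding protein, fell there (-0.69).

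PARP9, PARP10 and PARP14 carry or accompany the interferon response. PARP9 forms a complex with the ubiquitin ligase DTX3L, PARP14 is a macrodomain protein first known as a cofactor of STAT6, and PARP10 is a mono-ADP-ribosyltransferase found as a partner of MYC. All fell in the libraries labelled guide 1 and were called higher with guide 2 than there. PARP9 lies on chromosome 3, 122527924 to 122564577, minus strand, beside DTX3L on the opposite strand, and the genes share 217 exon bases, or 2.43% of those of PARP9. PARP14 lies farther along chromosome 3, 122680618 to 122730840, plus strand, and PARP10 on chromosome 8, 143977153 to 144012772, minus strand. PARP10 shares 8.64% of its exon bases with GRINA and SPATC1 on the opposite strand. The strand setting of the counting was not stated, so reads from such shared bases may have been counted for either gene.

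PARP10 was 80.3, 83.1 and 77.9 CPM in shScramble, 118, 113 and 113 CPM with guide 2, and 39.0, 37.8 and 41.0 CPM in the libraries labelled guide 1. The 3 groups were separate, with guide 2 highest. Compared with shScramble, the value was -1.04 on the log2 scale (SE 0.0503, edgeR adjusted p = 1.64e-16) in the libraries labelled guide 1. With guide 2 it was 0.51 (SE 0.0478, edgeR adjusted p = 5.27e-10), under the fold limit, and the direct difference between the shMETTL3 groups was 1.54 (SE 0.0502, edgeR adjusted p = 1.05e-20).

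PARP9 followed the same order at a lower level. It was 25.3, 29.2 and 26.9 CPM in shScramble, 33.2, 34.0 and 31.7 CPM with guide 2, and 17.0, 16.6 and 17.2 CPM in the libraries labelled guide 1. The groups did not overlap. The log2 fold change was 0.28 (SE 0.0676, edgeR adjusted p = 0.000801) with guide 2, not called. It was -0.68 (SE 0.0707, edgeR adjusted p = 1.71e-09) in the libraries labelled guide 1, and 0.96 between the shMETTL3 groups (edgeR adjusted p = 9.15e-13). DTX3L had the same order of groups, at 48.5 ± 0.653, 61.5 ± 2.25 and 34.7 ± 0.184 CPM (SD, n = 3). The ratio of PARP9 to DTX3L on the scale of CPM per kilobase was 0.367 ± 0.0226 in shScramble, 0.352 ± 0.00825 with guide 2 and 0.320 ± 0.00711 in the libraries labelled guide 1.

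PARP14 was not higher with guide 2 than in shScramble. It was 47.1, 40.9 and 42.5 CPM in shScramble and 38.9, 42.2 and 40.2 CPM with guide 2, and the groups overlapped. In the libraries labelled guide 1 it was 19.5, 20.95 and 18.8 CPM, below every other library. The log2 fold change was -0.11 (95% interval -0.24 to 0.02, edgeR adjusted p = 0.147) with guide 2 and -1.14 (SE 0.0670, edgeR adjusted p = 1.09e-14) in the libraries labelled guide 1. The direct difference between the shMETTL3 groups was 1.03 (SE 0.0682, edgeR adjusted p = 8.42e-14).

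The promoters of PARP9 and PARP14 are shown because these genes belong to the interferon response and were both lowest in the libraries labelled guide 1. Both come from RefSeq (GRCh38.p14), PARP9 at chr3:122564251-122564550 on the minus strand and PARP14 at chr3:122680589-122680888 on the plus strand. Capitals mark GAAA, any 2 bases and GAAA again, the core letters of the interferon-stimulated response element, searched on both strands. In PARP9 the match is on the opposite strand.
PARP9: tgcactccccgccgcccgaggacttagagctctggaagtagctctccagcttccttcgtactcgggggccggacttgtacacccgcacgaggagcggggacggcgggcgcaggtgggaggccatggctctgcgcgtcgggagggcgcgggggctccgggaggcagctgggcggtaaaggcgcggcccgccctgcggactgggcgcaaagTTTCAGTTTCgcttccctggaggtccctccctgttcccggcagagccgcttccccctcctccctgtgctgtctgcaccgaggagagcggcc
PARP14: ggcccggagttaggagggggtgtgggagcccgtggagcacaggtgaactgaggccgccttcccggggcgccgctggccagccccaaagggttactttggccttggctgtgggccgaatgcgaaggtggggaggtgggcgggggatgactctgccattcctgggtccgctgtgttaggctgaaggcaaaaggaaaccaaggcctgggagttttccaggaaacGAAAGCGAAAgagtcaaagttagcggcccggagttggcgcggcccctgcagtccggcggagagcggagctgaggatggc
The letters occurred in 3.57% of 35116 promoters. Of the 7 members with a promoter in the reference, PARP9 and PARP14 held them 1 time each, and PARP9 had a further start at chr3:122564735-122565034 without them. The entries of PARP1, PARP2, PARP3, PARP6 and PARP8 did not hold them, and PARP10 had no entry. The PARP9 window shown lies within DTX3L, which starts at 122564238 on the plus strand. A match of letters is not evidence of binding.

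The partners of these members and interferon-stimulated genes were examined as a list. Of 17 tested genes of this list (19 in all), 5 rose and 3 fell with guide 2, with a median log2 fold change of 0.34, beside 8.85% higher, 20.4% lower and a median of -0.04 for all tested genes. The libraries labelled guide 1 had 3 that rose and 7 that fell (median -0.53), beside 21.2%, 16.5% and a median of -0.02 for all tested genes. Directly compared, 10 were higher and 2 lower with guide 2 than in the libraries labelled guide 1 (median 0.89), beside 19.1%, 28.2% and a median of -0.06. OAS1, a sensor of double-stranded RNA, rose with guide 2 (1.63) and fell in the libraries labelled guide 1 (-2.27, 6 to 7 counts each). IFI6, an interferon-induced protein of the endoplasmic reticulum, did likewise (0.69 and -0.64), and OAS3 rose only with guide 2 among these comparisons (1.93, and 0.04 in the libraries labelled guide 1). STAT6, the partner of PARP14, moved the other way, falling with guide 2 (-1.20) and rising in the libraries labelled guide 1 (2.16). IFI27, another interferon-induced gene, also fell with guide 2 (-1.05) and rose in those libraries (0.90), at levels between 0.355 and 1.39 CPM. The summed luminal markers given above were also lowest in the libraries labelled guide 1. Of the 6 markers, 5 had their lowest mean there, and FOLH1 made up most of the sum (1211 CPM in shScramble, 1301 with guide 2 and 544 in the libraries labelled guide 1). KLK3 had another order, at 13.1, 7.43 and 14.5 CPM. The part of these markers in the results was not tested.

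PARP12, a further interferon-induced member of the family, was at 38.1 ± 2.01 CPM in shScramble, 61.4 ± 2.91 with guide 2 and 23.8 ± 1.56 in the libraries labelled guide 1 (SD, n = 3). It rose with guide 2 (log2 fold change 0.69, SE 0.0605, edgeR adjusted p = 1.46e-10) and fell in the libraries labelled guide 1 (-0.68, SE 0.0640, edgeR adjusted p = 2.59e-10). It was the only one of 6 tested genes among the other PARP family members to be called in either comparison. TNKS2, TIPARP, ZC3HAV1, PARP11 and PARP16 were not called, with values between -0.11 and 0.19 with guide 2 and between -0.37 and 0.51 in the libraries labelled guide 1. PARP15 had too few counts to be tested.

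**Figure D3:**
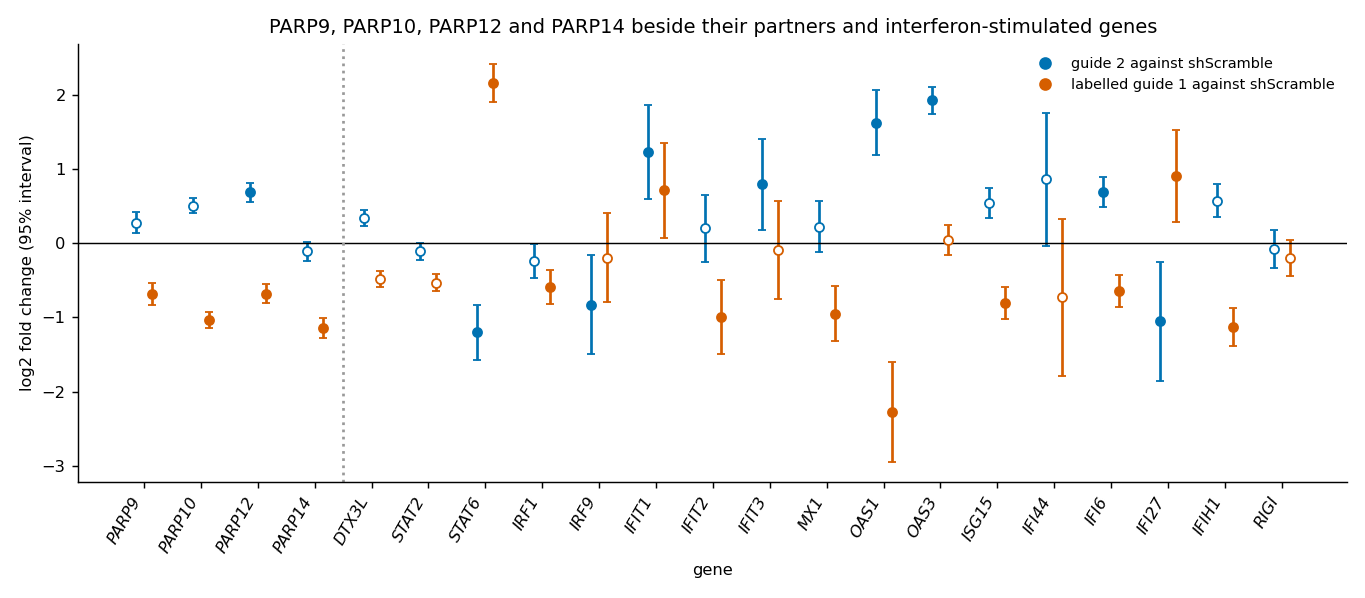
The vertical axis gives the log2 fold change against shScramble with its 95% interval for PARP9, PARP10, PARP12 and PARP14 (left of the dotted line) and for their partners and interferon-stimulated genes (right). Blue is guide 2, orange the libraries labelled guide 1, and filled points were called. PARP12 and OAS1 rose with guide 2 and fell in the libraries labelled guide 1, and STAT6 did the reverse.

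PARP6, a mono-ADP-ribosyltransferase studied in neurons, where it takes part in dendrite growth, had the widest range of the 10 members. It lies on chromosome 15, 72241181 to 72272999, minus strand. It had 105, 115 and 72 counts in shScramble, 9, 4 and 2 with guide 2, and 1135, 1095 and 1115 in the libraries labelled guide 1. These correspond to 3.40, 3.61 and 3.15 CPM, to 0.390, 0.159 and 0.0907 CPM, and to 39.8, 39.4 and 37.3 CPM. The groups were far apart, and replicate 3 of guide 2 was below the floor of 3 counts. The log2 fold change was -3.97 (SE 0.261, edgeR adjusted p = 4.19e-13) with guide 2, and without single guide 2 libraries it ranged from -4.69 (without replicate 1) to -3.63 (without replicate 3). It was 3.51 (SE 0.102, edgeR adjusted p = 1.66e-21) in the libraries labelled guide 1 and -7.48 (SE 0.170, edgeR adjusted p = 3.95e-24) between the shMETTL3 groups, with -8.20 and -7.14 without the same libraries. PARP6 shares 4.63% of its exon bases with a gene on the same strand that had 0 counts in every library. The guide 2 libraries also had counts in fewer genes than the others, and the part of this in the PARP6 value was not tested.

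The promoter of PARP6, the member with the largest range, is shown from RefSeq at chr15:72272505-72272804 (GRCh38.p14, minus strand). Capitals mark GGGCGG on the opposite strand.
PARP6: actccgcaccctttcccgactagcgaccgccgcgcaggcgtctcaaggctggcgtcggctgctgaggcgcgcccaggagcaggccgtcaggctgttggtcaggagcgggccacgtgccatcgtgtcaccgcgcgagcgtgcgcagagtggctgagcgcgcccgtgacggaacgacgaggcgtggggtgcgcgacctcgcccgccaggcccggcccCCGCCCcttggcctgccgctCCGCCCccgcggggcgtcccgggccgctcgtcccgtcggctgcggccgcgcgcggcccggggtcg
The GC box letters occurred 2 times. The window holds 50 CpG dinucleotides, more than in 98.7% of promoters, which have a median of 14 and quartiles of 4 and 28.

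The nearest tested genes on either side of PARP6 did not share its pattern. PKM, the pyruvate kinase of glycolysis, lies 9359 bases away and was at 671 CPM in shScramble, 1201 CPM with guide 2 and 749 CPM in the libraries labelled guide 1. It rose with guide 2 (log2 fold change 0.84, edgeR adjusted p = 4.52e-12) where PARP6 fell. HEXA, a lysosomal hexosaminidase on the other side, at 67920 bases, was called in neither comparison (-0.19 and -0.06). Of 15 other tested genes within 1000 kb, 2 rose and 5 fell with guide 2, with values from -1.91 to 1.38. In the libraries labelled guide 1, 1 rose and 2 fell, with values from -1.52 to 1.13. Among all tested genes 8.85% rose and 20.4% fell with guide 2, and 21.2% and 16.5% did in the libraries labelled guide 1. The ends of these ranges came from genes of low mean level, ADPGK-AS1 (0.312 CPM), GRAMD2A (0.427 CPM) and HEXA-AS1 (1.41 CPM). PARP6 lay outside these ranges in both comparisons. The window was chosen after the PARP6 values were known.

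PARP8 is a mono-ADP-ribosyltransferase related to PARP6 and lies on chromosome 5, 50665899 to 50846522, plus strand. It was 34.9, 33.1 and 34.3 CPM in shScramble, 24.6, 26.5 and 26.9 CPM with guide 2, and 28.8, 28.1 and 27.7 CPM in the libraries labelled guide 1. The guide 2 libraries and those labelled guide 1 all lay below shScramble, by less than 1.5-fold. The log2 fold change was -0.39 (SE 0.0634, edgeR adjusted p = 6.03e-06) with guide 2 and -0.28 (SE 0.0618, edgeR adjusted p = 0.000291) in the libraries labelled guide 1. The difference between the shMETTL3 groups was -0.12 (95% interval -0.25 to 0.02, edgeR adjusted p = 0.104).

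The make-up of the family was then compared per kilobase of exon. In shScramble PARP4 was highest (51.8 ± 1.60 CPM per kb), followed by PARP1 (40.8 ± 1.12), PARP10 (13.3 ± 0.430), PARP3 (12.9 ± 0.254), PARP2 (7.48 ± 0.0910), TNKS (6.50 ± 0.0301), PARP14 (4.15 ± 0.304), PARP8 (3.39 ± 0.0891), PARP9 (3.04 ± 0.221) and PARP6 (0.440 ± 0.0297; SD, n = 3). Among neighbours in this order, PARP10 and PARP3 overlapped over their libraries and the others did not. With guide 2 PARP1 was highest at 78.5 ± 2.78 CPM per kb and PARP4 was next at 30.8 ± 0.846, while PARP14 and PARP9 overlapped. In the libraries labelled guide 1 PARP1 was again highest at 69.2 ± 1.84 CPM per kb, ahead of PARP4 at 27.3 ± 1.80. PARP2 was the third there at 12.6 ± 0.882, PARP6 stood at 5.05 ± 0.177, and TNKS overlapped with PARP10 and PARP9 with PARP14.

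The ratio of PARP1 to PARP4 on this scale was 0.788 ± 0.0240 in shScramble, 2.55 ± 0.0221 with guide 2 and 2.54 ± 0.108 in the libraries labelled guide 1 (SD, n = 3). PARP1 made up 28.4%, 47.5% and 48.5% of the summed level of the 10 members, and PARP4 made up 36.0%, 18.6% and 19.1%. The sum itself was 144 ± 3.05, 165 ± 4.26 and 143 ± 3.66 CPM per kb. PARP6 contributed 0.306% in shScramble, 0.0169% with guide 2 and 3.54% in the libraries labelled guide 1.

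**Figure D4:**
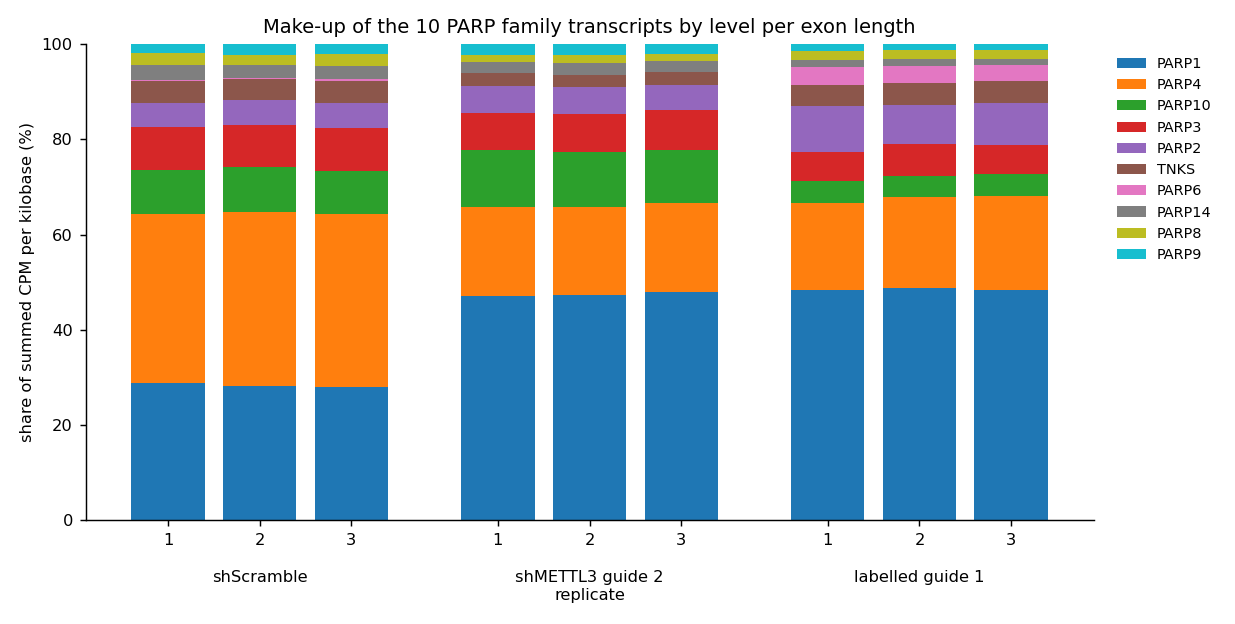
Each bar is a library and shows the share, in percent, of each PARP family gene in the summed CPM per kilobase of exon of the 10 genes, by group and replicate. PARP4 has the largest share in shScramble (36.0%), and PARP1 has the largest in both shMETTL3 groups (47.5% and 48.5%).

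The genes that remove ADP-ribose and supply NAD were examined beside the transferases. Of 9 hydrolases and erasers, 0 rose and 1 fell with guide 2, and 3 rose and 0 fell in the libraries labelled guide 1. Among all tested genes 8.85% rose and 20.4% fell with guide 2, and 21.2% and 16.5% did in the libraries labelled guide 1. The median log2 fold change of the list was 0.18 and 0.37, against -0.04 and -0.02 for all tested genes. PARG, which degrades poly(ADP-ribose), was called in neither (0.18 and -0.08). MACROD1, a mono-ADP-ribose hydrolase, and ENPP1, a phosphodiesterase, were at 0.19 and 0.33 with guide 2, not called, and rose in the libraries labelled guide 1 (1.42 and 1.16). The gene that fell with guide 2 was ADPRH, the arginine ADP-ribose hydrolase, at 0 counts in each guide 2 library. It had 5, 3 and 2 counts in shScramble and 20, 15 and 19 in the libraries labelled guide 1, so the comparison of guide 2 with shScramble is at the floor of 3 counts.

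Of 11 genes of NAD synthesis and use, 0 rose and 2 fell with guide 2 (median log2 fold change -0.14), and 1 rose and 2 fell in the libraries labelled guide 1 (median -0.23). These counts were close to the shares of all tested genes, with 8.85% higher and 20.4% lower with guide 2 and 21.2% and 16.5% in the libraries labelled guide 1, and the medians of all tested genes were -0.04 and -0.02. NAMPT, the rate-limiting enzyme of the salvage pathway, was called in neither (-0.14 and -0.21). QPRT, the enzyme that leads from tryptophan to NAD, had 79, 93 and 45 counts in shScramble, 14, 9 and 12 with guide 2, and 880, 872 and 936 in the libraries labelled guide 1. It fell with guide 2 (-2.33, edgeR adjusted p = 1.32e-09) and rose in the libraries labelled guide 1 (3.62, edgeR adjusted p = 5.39e-21), the same order of groups as PARP6. NMNAT2, an adenylyltransferase of NAD synthesis in the cytoplasm, fell with guide 2 (-0.96) and was at -0.44, not called, in the libraries labelled guide 1. NADK2, the mitochondrial NAD kinase, and NAPRT, the enzyme that uses nicotinic acid, fell in the libraries labelled guide 1 (-0.84 and -0.64).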

How the data were processed

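Per the labels and the study's methods, the authors trimmed adapters with Trim Galore, aligned reads with STAR to GRCh38 and assigned them to Ensembl genes with featureCounts. They deposited raw counts for each gene and library, neither normalized nor pooled. How multi-mapping reads were handled was not stated. Symbols came from a later annotation of the same build, and coordinates are those of the deposited files.

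Counts were analysed with edgeR 4.0.16 in R 4.3.3. Genes were filtered by filterByExpr (minimum count 10, minimum total 15), libraries were scaled by TMM, and a robust quasi-likelihood model was fitted to all 9 libraries with a coefficient for each of the 3 groups. p-values were adjusted over 19278 genes by the Benjamini-Hochberg method. Intervals are 95% and use an SE derived from the log2 fold change and the F statistic of the quasi-likelihood test. The floor of 3 counts covers counting error only. Groups and replicate numbers were taken from the labels. The procedure was tested on simulated data before use. DESeq2 1.42.0, other scalings and filters, a replicate block and leaving out libraries were alternatives.

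Members and gene lists were chosen with earlier results of these data known. Genes named are METTL3, the members, every gene of the lists except a few that are not reported here, and for PARP1 and PARP4 the 3 genes of at least 10 CPM with the highest correlation. Neighbouring genes, motifs and hairpin searches were added after values were seen.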

Additional observations from a re-analysis of the deposited data

Results flagged for a closer look

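Compared directly, guide 2 and the libraries labelled guide 1 differed past the threshold for 4 of 10 members (40%). Of all tested genes, 47.3% did. PARP6 was lower with guide 2 by a log2 difference of -7.48 (edgeR adjusted p = 3.95e-24). PARP9, PARP10 and PARP14 were higher with guide 2, by 0.96 (edgeR adjusted p = 9.15e-13), 1.54 (edgeR adjusted p = 1.05e-20) and 1.03 (edgeR adjusted p = 8.42e-14). METTL3 RNA was lower with guide 2 only, so the shMETTL3 groups did not have equal levels of METTL3.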

How the results depend on the processing

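Over all alternatives, 480 values of the members were recomputed, of which 463 kept their direction and their side of the threshold, 11 kept their direction and became called, and 6 changed sign. All sign changes were in values near 0. The PARP3 value with guide 2 was -0.10 with scaling by library size alone, -0.0017 with a minimum mean of 1 CPM and -0.0047 without replicate 3 of guide 2 (leave-one-out range -0.0047 to 0.082). The TNKS value in the libraries labelled guide 1 was -0.0058 with scaling by library size alone, and its leave-one-out range was -0.025 to 0.043, with -0.0021 without replicate 2 of shScramble and -0.025 without replicate 2 of guide 1. Without the fold limit, 8 members and 11910 genes with guide 2, 13188 genes in the libraries labelled guide 1, and 9 members and 14386 genes between the shMETTL3 groups passed. With scaling by library size alone, TNKS was called with guide 2 (-0.71) and between the shMETTL3 groups (-0.71), as was PARP2 in the latter (-0.60), and the median of all genes with guide 2 moved from -0.04 to -0.19. The share of called genes that were higher then fell from 30.2% to 17.2% with guide 2, and was 31.3% rather than 40.4% between the shMETTL3 groups. A minimum mean of 1 CPM also called TNKS with guide 2 (-0.61) and between the shMETTL3 groups (-0.61). Leaving out replicate 1 of guide 1 called TNKS between the shMETTL3 groups (-0.60). PARP3 was called between these groups without the low-count filter (0.59) and without replicate 1 of guide 2 (0.60), replicate 2 of guide 2 (0.61) or replicate 2 of guide 1 (0.65), and without the last also against shScramble (-0.60). DESeq2 called the same number of members (3, 7 and 4). Deviations of same-numbered libraries from their group means correlated at -0.46 to 0.23. Differently numbered libraries were not compared, so these values do not decide whether replicate numbers paired the libraries. A fit with the replicate number as a block called 3, 7 and 4 members and 5494, 7140 and 9027 genes. The cause of these changes was not tested.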

Other observations

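Genes whose log2 CPM followed PARP1 most closely over the 9 libraries were THOP1, an endopeptidase (Pearson r = 0.998), PRPS2, which makes phosphoribosyl pyrophosphate (0.998), and SLC29A1, a nucleoside transporter (0.996), out of 10356 genes of at least 10 CPM. For PARP4 they were NIBAN1, a stress-response gene (0.996), ELF3, an epithelial transcription factor (0.995), and ABR, a regulator of small GTPases (0.995). The points share 3 groups of 3 libraries, so these values are a description.

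GGACU, a sequence in which m6A is often placed, was counted in the canonical transcript of each member after the expression values were known. Per kilobase it was densest in PARP3 (2.57), PARP10 (2.00) and PARP4 (1.84) and sparsest in PARP8 (0.401), with a median of 0.935 over 14336 tested protein-coding genes. PARP1 had 3 such sequences (0.754 per kb) and PARP4 had 10. The count does not show which sites carry m6A.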
